A study of Homo sapiens with 2 samples.

Results

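The integrated stress response is the pathway by which cells answer amino acid shortage, misfolded protein in the endoplasmic reticulum, haem shortage or viral RNA. Kinases that sense these stresses phosphorylate the translation factor eIF2α, which slows protein synthesis in general but raises translation of the ATF4 mRNA through its upstream open reading frames. ATF4, a basic leucine zipper transcription factor, then switches on genes for amino acid supply, for redox balance and, through CHOP, for cell death. Because ATF4 is controlled to a large degree at translation, its mRNA level alone does not measure the activity of the pathway.

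The genes described are ATF4, ATF5, DDIT3, CHAC1, TRIB3, ASNS, PPP1R15A, DDIT4, PSAT1 and PHGDH, that is ATF4, CHOP (DDIT3) and their stress and amino acid synthesis targets. They were taken by gene symbol as known members of the pathway, with earlier results of these data known. All 10 were found among the 23033 genes of the table that had a value, and all 10 passed the filter on low values.

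The transcriptome was read in a control library and an FZR1 ko library. Control cells are labelled WT. The labels give T-47D, a line of luminal breast cancer, and cisplatin at 2 µg/ml for both libraries. Cisplatin, a platinum drug that crosslinks DNA, was thus shared by both groups, and no library without the drug was used here. FZR1 encodes an activator of the anaphase-promoting complex, a ubiquitin ligase of the cell cycle. The FZR1 ko line was made with CRISPR/Cas9 and single cell cloning, so the difference between genotypes cannot be told apart from one particular to 1 clone. The sources used here do not say whether the control library came from parental cells or from cells with an empty vector. The sources used here give no treatment time for these libraries.

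There was 1 library per group, so no difference has a replicate check, no test was made, and a direction given for a gene is that between these libraries. Levels are FPKM, a measure of sequenced fragments per unit of transcript length and per unit of library size, from which no number of reads can be read. Among 244 short RNA genes FPKM in FZR1 ko over FPKM in control was most often 0.978, within 0.5% in 46 of them. If those 46 genes had equal numbers of reads and equal lengths in both libraries, the relative depth was near 1.02 reads in FZR1 ko for each in control. That assumption was not checked. The absolute depth is unknown. The log2 ratio of a gene is its log2(FPKM + 1) in FZR1 ko less its log2(FPKM + 1) in control, so that differences of low genes come out smaller than they are. Counts of genes at least 2-fold higher or lower are on this scale, with a log2 ratio of at least 1 in either direction. Ratios were taken over 13554 genes of at least 1 FPKM in at least 1 library. FZR1 itself had 12.3 FPKM in control cells and 10.1 FPKM in FZR1 ko cells, which does not check the labels, since a small insertion or deletion can leave the mRNA in place. Of 10 luminal markers 5 stayed under 1 FPKM in both libraries, namely ESR1, PGR, GATA3, CDH1 and KRT19, which goes against the label of a luminal line. FOXA1, another luminal marker, was at 5.07 and 4.65 FPKM, control first. KRT8 and KRT18 were high, at 829 and 552 FPKM in control, as was the mesenchymal marker VIM at 315 FPKM, while FN1 and ZEB1 were at 6.33 and 2.82 FPKM and the basal markers KRT5, KRT14 and TP63 stayed under 1 FPKM. Some markers differed between the libraries, with MUC1 at 99.4 and 37.5 FPKM, EPCAM at 3.90 and 11.5 FPKM and CDH2 at 2.97 and 15.3 FPKM, control first, and their part in the results was not tested. Of 5 markers of other cell types, PTPRC of leukocytes, PECAM1 of endothelium and ACTA2 of muscle and fibroblasts stayed under 1 FPKM in both libraries. CD68, a lysosomal gene used to mark macrophages, was at 46.1 and 63.8 FPKM, and COL1A1, a collagen of fibroblasts, was at 5.13 and 6.25 FPKM. In bulk RNA, a difference in some of the cells and a smaller difference in all of them cannot be told apart.

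The DNA element through which ATF4 acts is known as the C/EBP-ATF response element, or CARE. Its letters were searched as TGATGNAA on both strands of the 1000 bases upstream of each RefSeq start site, read from hg38. At least 1 match stood upstream of 6 of the 10 genes, against 4135 of all 27305 genes with a start site (15.1%). By window it was 10 of the 17 of these genes, against 12.95% of all 35116 upstream windows. The 10 genes were taken as known members of the pathway, which favours a high share. In the other gene lists described below, the share ran from 0 of 7 relatives of the 10 genes to 4 of 6 other amino acid enzymes (66.67%). The nearest matches are shown because these genes went in different directions in FZR1 ko. Each line gives 30 bases on the strand of the gene, 5′ to 3′, with the match in capitals. For a match on the opposite strand the capitals are its reverse complement.
CHAC1 (chr15:40953251-40953280, plus strand): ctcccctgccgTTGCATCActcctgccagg
DDIT3 (chr12:57520802-57520831, minus strand): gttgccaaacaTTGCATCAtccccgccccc
ASNS (chr7:97872458-97872487, minus strand): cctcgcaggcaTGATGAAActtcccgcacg
TRIB3 (chr20:380947-380976, plus strand): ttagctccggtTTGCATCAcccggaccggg
DDIT4 (chr10:72272967-72272996, plus strand): gtcctcggtccTGATGCAAccgtctggatc
PHGDH (chr1:119710969-119710998, plus strand): cataattctcaTTGCATCActaatttgaaa

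The match began 209 bases upstream of the start site in CHAC1, 68 bases in ASNS, 303 bases in DDIT3 and 337 bases in TRIB3, each counted from the nearest of the gene's start sites. In TRIB3 the same 30 bases occurred at 3 places, starting at 380881, 380914 and 380947, and ASNS held a farther match 886 bases upstream. In DDIT4 and PHGDH the match lay farther out, at 946 and 954 bases. In the GENCODE 44 annotation the stretches of CHAC1, ASNS and TRIB3 fall in an untranslated exon stretch of at least 1 transcript of the same gene, and that of DDIT3 lies outside exons, within the spans of DDIT3 and MBD6. The stretch of PHGDH lies outside exons within the gene's span, and that of DDIT4 lies in an exon of a noncoding gene on the other strand. ATF4, ATF5, PPP1R15A and PSAT1 held no CARE match in this window. PPP1R15A held instead the cyclic AMP response element TGACGTCA, a palindrome and so the same on both strands, 58 bases upstream of its start site. That element stood in 2.37% of all upstream windows, and is shown because it was the only match of PPP1R15A to the motifs searched.
PPP1R15A (chr19:48872352-48872381, plus strand): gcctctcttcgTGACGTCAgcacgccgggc

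The endoplasmic reticulum stress element, CCAAT and CCACG parted by 9 bases of any kind, which ATF6 binds, was upstream of 0 of the 10 genes and in 0.13% of all windows. Genes with a CARE match were found on both sides of the comparison. CHAC1, DDIT3 and ASNS were lower in FZR1 ko, and TRIB3, DDIT4 and PHGDH were higher. A match is a description of the letters, and binding was not measured.

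**Figure D1:**
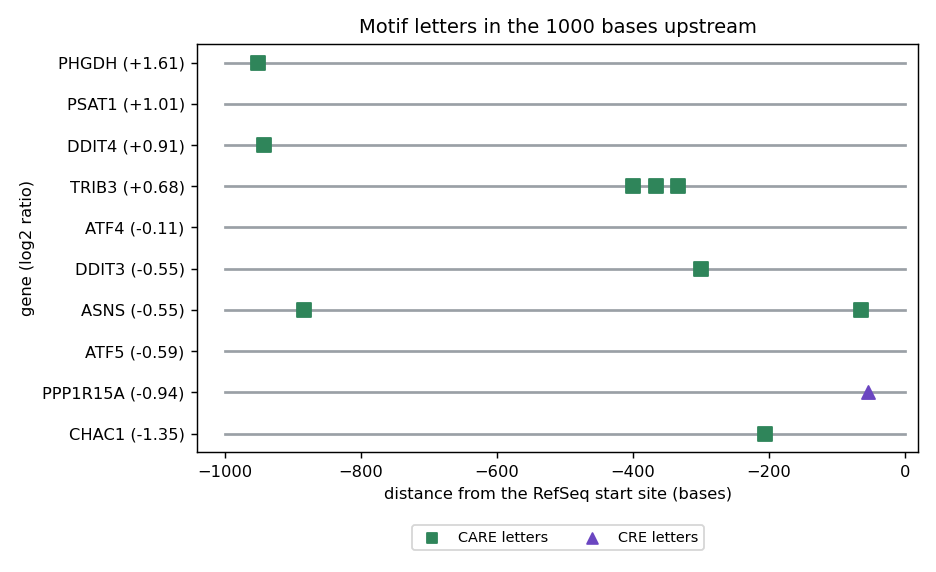
Each line is the 1000 bases upstream of a RefSeq start site, with distance from that site on the x axis in bases, and genes ordered by their log2 ratio of FZR1 ko to control, given in brackets. Green squares are CARE letters and the purple triangle is the cyclic AMP response element. CARE letters stand upstream of 6 genes, 3 lower and 3 higher in FZR1 ko.

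The 10 genes did not move as a block. Relative to control, 6 genes had lower and 4 had higher levels in FZR1 ko, with a median log2 ratio of -0.33 and a mean of 0.01, which differ in sign. ATF4 itself was nearly level, ATF5, DDIT3, CHAC1, PPP1R15A and ASNS were lower, and TRIB3, DDIT4 and the serine synthesis enzymes PSAT1 and PHGDH were higher. At least 2-fold differences were found in 3 of the 10, against 13.5% of all genes kept and 12.1% of the protein-coding genes kept. CHAC1 was the 1 gene at least 2-fold lower (6.72% of all genes kept), and PSAT1 and PHGDH were the 2 at least 2-fold higher (6.78% of all genes kept). With 10 genes these counts are small. The median over all genes kept was -0.0048, with 6812 lower and 6726 higher.

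**Figure D2:**
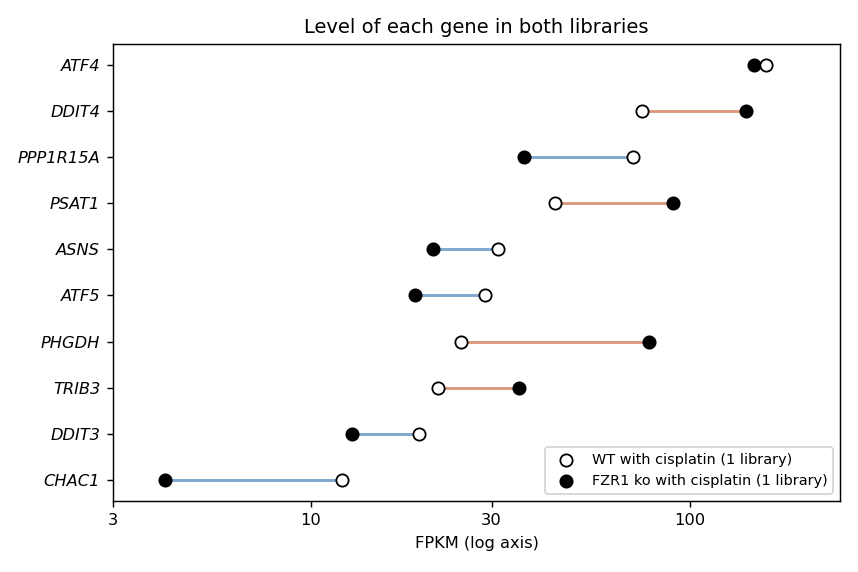
Each row is a gene, with FPKM on a log x axis. Open circles are the control (WT) library and filled circles the FZR1 ko library, 1 library each, joined by a blue line where FZR1 ko was lower and an orange line where it was higher. ATF4 stands at 159 and 148 FPKM, while CHAC1 has 12.1 and 4.13 FPKM and PHGDH 24.9 and 78.2 FPKM, control first.

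ATF4 (Entrez gene 468, chr22:39520559-39522686), the transcription factor at the centre of the pathway, had 159 FPKM in control cells and 148 FPKM in FZR1 ko cells. Its log2 ratio was -0.11, at the 43.1 percentile of all genes kept, and it had the highest level of the 10 genes in both libraries. ATF5 (Entrez gene 22809, chr19:49928906-49933935), a related factor that is also translated through upstream open reading frames and is tied to mitochondrial stress, had 28.8 FPKM in control cells and 18.9 FPKM in FZR1 ko cells. This was a log2 ratio of -0.59. DDIT3 (Entrez gene 1649, chr12:57516588-57520517), which encodes CHOP, the factor that ATF4 induces and that promotes cell death, had 19.3 FPKM in control cells and 12.9 FPKM in FZR1 ko cells, a log2 ratio of -0.55. ATF5 and DDIT3 were thus both lower in FZR1 ko by about the same amount, without reaching 2-fold, while ATF4 mRNA hardly differed. Per unit of ATF4 level, DDIT3 stood at 0.121 in control and 0.0869 in FZR1 ko. Both loci carry a neighbour on the other strand. DDIT3 shares 355 of its 1307 exonic bases (27.2%) with MARS1, which went the other way, from 35.5 FPKM in control cells to 54.5 FPKM in FZR1 ko cells. ATF5 shares 565 of its 2892 exonic bases (19.5%) with NUP62, at 58.7 and 56.5 FPKM. The sources used here do not state a stranded library, and without strand the reads of such overlaps cannot be told apart.

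CHAC1 (Entrez gene 79094, chr15:40953471-40956512), an enzyme that degrades glutathione and is a known target of ATF4 and CHOP, was the lowest of the 10 genes in both libraries. It had 12.1 FPKM in control cells and 4.13 FPKM in FZR1 ko cells, 2.92-fold lower. Its log2 ratio of -1.35 lay at the 2.84 percentile of all genes kept. With a pseudocount of 5 FPKM the ratio was -0.90, so CHAC1 no longer passed the 2-fold threshold. PPP1R15A (Entrez gene 23645, chr19:48872421-48876058) encodes GADD34, the stress-induced subunit that brings a phosphatase to eIF2α and so ends the response. It had 70.7 FPKM in control cells and 36.5 FPKM in FZR1 ko cells, a log2 ratio of -0.94, just inside the 2-fold threshold. TRIB3 (Entrez gene 57761, chr20:380760-397559), a pseudokinase induced by ATF4 and CHOP that binds ATF4 and AKT, went the other way. It had 21.7 FPKM in control cells and 35.4 FPKM in FZR1 ko cells, a log2 ratio of 0.68. These targets therefore diverged, with CHAC1 and PPP1R15A lower and TRIB3 higher. In control TRIB3 and DDIT3 had similar levels, a ratio of 1.13, and in FZR1 ko TRIB3 was 2.76 times the level of DDIT3.

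DDIT4 (Entrez gene 54541, chr10:72273924-72276036) encodes REDD1, a stress-induced inhibitor of the growth kinase complex mTORC1. It had 74.7 FPKM in control cells and 141 FPKM in FZR1 ko cells. The log2 ratio was 0.91, at the 91.5 percentile of all genes kept, and DDIT4 was second only to ATF4 in both libraries. In control DDIT4 and PPP1R15A had nearly the same level, a ratio of 1.06, whereas in FZR1 ko the ratio was 3.87. These ratios between genes were chosen after the values were seen.

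The amino acid enzymes were split as well. ASNS (Entrez gene 440, chr7:97851677-97928441), asparagine synthetase and a classical ATF4 target, had 31.2 FPKM in control cells and 21.0 FPKM in FZR1 ko cells, a log2 ratio of -0.55. PHGDH (Entrez gene 26227, chr1:119711934-119744215), the enzyme of the first step of serine synthesis from glucose, had 24.9 FPKM in control cells and 78.2 FPKM in FZR1 ko cells. It was 3.14-fold higher, and its log2 ratio of 1.61 was the largest difference of the 10 genes, at the 98.8 percentile of all genes kept. PSAT1 (Entrez gene 29968, chr9:78297125-78330093), the aminotransferase that acts after PHGDH, had 44.2 FPKM in control cells and 90.1 FPKM in FZR1 ko cells, 2.04-fold higher. Its log2 ratio of 1.01 lay close to the 2-fold threshold and was 0.95 with a pseudocount of 5 FPKM. In control ASNS stood above PHGDH, with 0.797 units of PHGDH for each of ASNS, and in FZR1 ko PHGDH was 3.73 times the level of ASNS. The levels of PHGDH and PSAT1 summed to 69.0 FPKM in control cells and 168 FPKM in FZR1 ko cells.

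By level per length, the genes of control ran ATF4, DDIT4, PPP1R15A, PSAT1, ASNS, ATF5, PHGDH, TRIB3, DDIT3 and CHAC1. In FZR1 ko the order was ATF4, DDIT4, PSAT1, PHGDH, PPP1R15A, TRIB3, ASNS, ATF5, DDIT3 and CHAC1. The top pair and the last pair kept their places, PHGDH moved from place 7 to place 4 and PPP1R15A from place 3 to place 5. With 1 library per group there is no spread by which to say which neighbours in these orders differ.

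**Figure D3:**
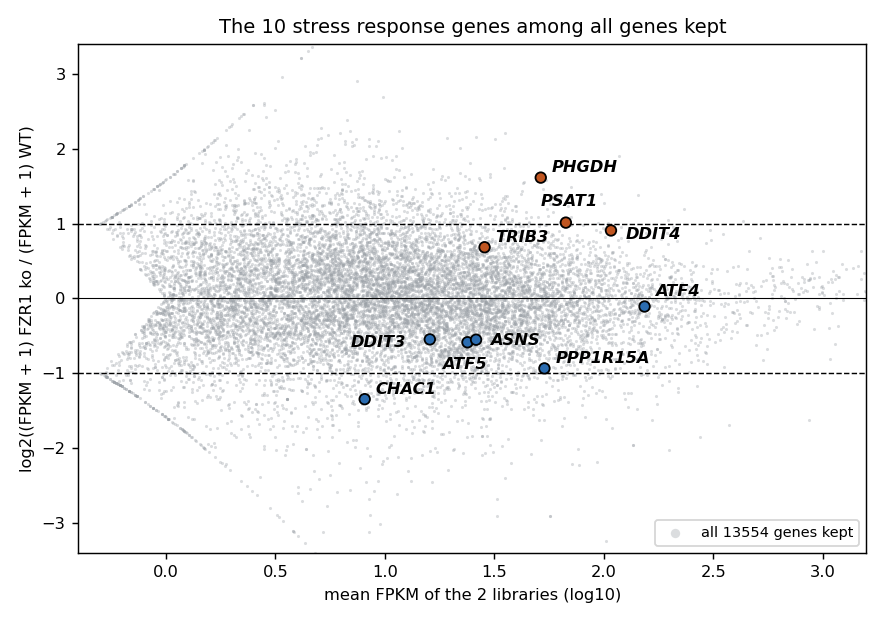
Each grey point is 1 of the 13554 genes kept, with the log10 of its mean FPKM on the x axis and its log2 ratio of FZR1 ko to control on the y axis; 23 genes lie outside the axes. The 10 stress response genes are coloured blue where lower and orange where higher in FZR1 ko, and dashed lines mark 2-fold. PHGDH at 1.61, PSAT1 at 1.01 and CHAC1 at -1.35 lie beyond the lines, and DDIT4 and PPP1R15A lie just within them.

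The rest of the pathway and genes beside it were described with 13 lists of 117 genes, of which 113 passed the filter. All are called pathway genes below, although some lists, such as those of mTORC1 and of relatives of the described genes, stand beside the pathway. Of these 113 genes, 55 had lower and 58 had higher levels in FZR1 ko, and 11 (9.73%) differed at least 2-fold, 6 lower and 5 higher, beside 13.5% of all genes kept. With a pseudocount of 5 FPKM these were 4 lower and 2 higher, and SESN2, MAP1LC3B, SHMT1, RPTOR and VLDLR no longer passed 2-fold.

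Upstream of ATF4, none of the 4 eIF2α kinases reached 2-fold on the log2(FPKM + 1) scale. EIF2AK4 (GCN2), which senses uncharged tRNA, differed most, with 3.61 FPKM in control cells and 7.54 FPKM in FZR1 ko cells, a log2 ratio of 0.89. Its FPKM without the pseudocount differed 2.09-fold. EIF2AK1 (HRI), the haem-regulated kinase that also relays mitochondrial stress, had 56.7 and 73.5 FPKM and the highest level of the 4. EIF2AK2 (PKR), which binds double-stranded RNA, had 9.84 and 9.56 FPKM, and EIF2AK3 (PERK), the kinase of the endoplasmic reticulum, had 3.44 and 2.90 FPKM. The 8 subunits of eIF2 and of its exchange factor eIF2B had a median log2 ratio of -0.15 and 0 of them differed 2-fold. Among these, EIF2S1, which encodes eIF2α, had 53.7 FPKM in control cells and 34.6 FPKM in FZR1 ko cells, EIF2B3 had 8.76 and 15.8 FPKM, and EIF2B2 had 31.9 and 20.3 FPKM. PPP1R15B, the constitutive counterpart of GADD34, was lower in FZR1 ko to the same degree as PPP1R15A, with 67.5 FPKM in control cells and 33.9 FPKM in FZR1 ko cells, a log2 ratio of -0.97. The catalytic subunit PPP1CC, in contrast, had 84.0 and 104 FPKM.

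Of the 8 basic leucine zipper genes listed as partners of ATF4, 6 had lower and 2 had higher levels in FZR1 ko, with a median log2 ratio of -0.50. ATF3, itself a target of ATF4 and of other stress pathways, was the 1 at least 2-fold lower, with 123 FPKM in control cells and 29.8 FPKM in FZR1 ko cells, a log2 ratio of -2.01. CEBPG, which pairs with ATF4 at amino acid genes, had 16.5 and 8.90 FPKM, and CEBPA had a log2 ratio of -0.85. JDP2, a repressor of this family, had 5.15 FPKM in control cells and 10.1 FPKM in FZR1 ko cells. Of 9 measured relatives of the 10 genes, 3 were lower and 6 were higher, with a median of 0.24. GADD45A, another gene induced by growth arrest and DNA damage, was lower, from 114 FPKM in control cells to 47.9 FPKM in FZR1 ko cells (log2 ratio -1.24). ATF6B, a relative of the endoplasmic reticulum stress factor ATF6, was higher, at 16.1 and 31.2 FPKM (0.91). The tribbles relatives TRIB2 and TRIB1 had log2 ratios of -0.68 and -0.65, and the factors ATF7 and ATF6 had 0.58 and 0.47.

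The list of other stress targets of ATF4 or CHOP had the lowest median of the 13 lists, -0.68 over 12 genes kept, with 9 lower and 3 higher and 4 at least 2-fold. GDF15, a stress-induced secreted factor and also a p53 target, had 251 FPKM in control cells and 80.4 FPKM in FZR1 ko cells, a log2 ratio of -1.63. Genes of this list can answer to other factors too, as GDF15 does. The median is thus no measure of ATF4 or CHOP output, and which factor the differences came from was not tested. SESN2, a leucine sensor upstream of mTORC1, had 17.5 and 7.68 FPKM (-1.09), and MAP1LC3B, the autophagosome protein, had 127 and 62.9 FPKM, just past 2-fold. MAP1LC3B fell short of 2-fold once ratios were centred on their median or FZR1 ko was rescaled to the FPKM sum of control, which left 5 pathway genes at least 2-fold lower in place of 6. VLDLR, a lipoprotein receptor, was at least 2-fold higher, from 0.23 FPKM in control cells to 2.01 FPKM in FZR1 ko cells. It passed the filter on low values through the FZR1 ko library alone, and with the filter applied in both libraries 4 pathway genes in place of 5 were at least 2-fold higher. STC2, a secreted glycoprotein, was also higher, at 16.5 and 29.3 FPKM. BCL2L11, a BH3-only death gene that CHOP induces, had 34.2 and 17.4 FPKM. Of the 16 genes of the ATF6 and XBP1 arms of the unfolded protein response, 11 were lower and 5 were higher, with a median of -0.25. DNAJB9, a co-chaperone of the endoplasmic reticulum, was the 1 at least 2-fold lower, from 19.3 to 3.68 FPKM (-2.12). HERPUD1, a factor of protein degradation at the endoplasmic reticulum, had 38.5 and 20.4 FPKM, and MANF, a secreted stress protein, had 117 and 66.9 FPKM.

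Genes of amino acid supply differed from list to list. Of the 7 enzymes of serine, glycine and one-carbon metabolism beside PHGDH and PSAT1, 5 were higher and 2 were lower in FZR1 ko, with a median log2 ratio of 0.72, the highest of the 13 lists, or 0.446 with a pseudocount of 5 FPKM. SHMT1, the cytosolic enzyme that converts serine to glycine, was at least 2-fold higher, with 8.49 FPKM in control cells and 18.5 FPKM in FZR1 ko cells. MTHFD1, a cytosolic folate enzyme, had 32.9 and 62.9 FPKM, and the mitochondrial folate enzymes MTHFD1L and ALDH1L2 had 14.0 and 23.6 FPKM and 2.76 and 5.57 FPKM, the latter 2.02-fold higher without the pseudocount. PSPH, the phosphatase that completes serine synthesis, had 24.6 and 30.6 FPKM, a smaller difference than those of PHGDH and PSAT1. The 2 that were lower were the mitochondrial enzymes SHMT2, at 179 and 132 FPKM, and MTHFD2, at 111 and 89.3 FPKM, the second named after its value was seen.

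Of 9 amino acid transporters kept, 6 were higher and 3 were lower, with a median of 0.43, or 0.237 without the filter on low values. SLC7A5, the large neutral amino acid transporter, had 128 FPKM in control cells and 265 FPKM in FZR1 ko cells (log2 ratio 1.05), whereas its partner chain SLC3A2 had 387 and 277 FPKM (-0.48). SLC7A1, a carrier of cationic amino acids, had 9.06 and 17.5 FPKM, and SLC6A9, a glycine transporter, had a log2 ratio of 0.76. SLC38A2, a glutamine and alanine carrier induced by amino acid shortage, was lower, at 160 and 88.2 FPKM (-0.86), while its relative SLC38A1 had 44.3 and 66.5 FPKM (0.57). The 10 other amino acid enzymes were divided, with 6 lower and 4 higher, a median of -0.12 and 0 at least 2-fold on the log2(FPKM + 1) scale. GLUL, glutamine synthetase, had 1.99 and 0.50 FPKM, and CBS, an enzyme of cysteine synthesis, had 1.90 and 4.51 FPKM. Without the pseudocount GLUL was 3.98-fold lower and CBS 2.37-fold higher. GLUL passed the filter on low values through the control library alone, and with the filter applied in both libraries the median of this list was -0.05. The proline synthesis enzymes ALDH18A1 and PYCR1 were both higher, at 19.4 and 31.8 FPKM and at 45.5 and 68.3 FPKM.

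Beside DDIT4, 6 genes of mTORC1 and its brake were read, of which 5 were higher and 1 was lower in FZR1 ko. RPTOR, the scaffold of the complex, was at least 2-fold higher, from 2.02 to 7.43 FPKM (log2 ratio 1.48), and MTOR, the kinase, had 7.29 and 15.3 FPKM (0.98, and past 2-fold without the pseudocount). TSC1, a subunit of the brake through which REDD1 acts, was lower, at 15.8 and 9.23 FPKM (-0.72), while MLST8, a subunit of the complex, had a log2 ratio of 0.33 and TSC2, the partner of TSC1, had 0.29.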

How the data were processed

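Total RNA of 2 libraries was sequenced on a BGISEQ-500 platform. The authors aligned reads to the transcriptome with Bowtie2 and quantified them with RSEM on hg38, and deposited FPKM per Entrez gene ID to 2 decimals. The submitters' processing notes also name Trimmomatic 0.36 and HISAT2 2.1.0, and give a version of Bowtie2, 2.2.5, that differs from the one in the study's methods. The annotation version and strand setting are not given in the sources used here. Of 24663 rows, 1630 had no value, and 22925 of 23033 IDs (99.5%) matched a RefSeq symbol of GRCh38.p14. There were 0 other columns of values per sample.

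Log2 ratios used a pseudocount of 1 FPKM and genes of at least 1 FPKM in at least 1 library, and 2-fold was the threshold. The code was tested on simulated data. The members and lists were chosen with earlier results of these data known. Named were all members, FZR1, markers, kinases, and in each list up to 6 genes in order of absolute log2 ratio, with genes past 2-fold included. The cyclic AMP response element was added later. Start sites were those of RefSeq GRCh38.p14, and all 35116 of its promoter windows were identical to the hg38 genome used. Alternatives were pseudocounts of 0.1 and 5 FPKM, no filter, a filter in both libraries, centring, rescaling and thresholds of 1.5-fold and 4-fold. Python 3.11.15, numpy 2.4.6, pandas 2.3.3 and matplotlib 3.10.9 were used.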

Additional observations from a re-analysis of the deposited data

How the results depend on the processing

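No paired analysis was possible because each group has 1 library, and for the same reason no library could be left out. Without replicate error, a single value was compared by its direction and its side of the 2-fold threshold, a count by whether it stayed within 1.5 times, and a median by whether it kept its direction and moved by no more than 0.1 or 1.5 times. Protein-coding genes only was chosen after the data were seen. Of 70 values of the single genes under the alternatives, 68 kept direction and side, and the exceptions were CHAC1 at -0.90 and PSAT1 at 0.95 with a pseudocount of 5 FPKM. The settings of no filter, a filter in both libraries and protein-coding genes only could not change these values. All 10 genes are protein-coding and passed the filter in both libraries. Centring and rescaling shifted all ratios by a small, nearly equal amount, so only the pseudocounts changed them by much. The mean of the 10 log2 ratios was 0.0139 in place of a median of -0.33. Of the 91 medians of the pathway lists, 88 were kept. Protein-coding genes only could not change them, because every list gene kept is protein-coding. The filter settings could change only lists that hold a gene under 1 FPKM in a library. With a pseudocount of 5 FPKM that of the serine, glycine and one-carbon enzymes was 0.446 and that of the mitochondrial list 0.250, and without a filter that of the transporters was 0.237. Counts moved most, by construction. With a pseudocount of 5 FPKM 0 of the 10 genes were 2-fold lower and 1 was higher, 270 of all genes were lower and 183 higher, and 2 pathway genes were higher. With 0.1 FPKM 1460 of all genes and 8 pathway genes were higher. At 1.5-fold 3 of the 10 genes were lower and 4 higher, against 2387 and 2440 of all genes and 24 and 23 pathway genes. At 4-fold 0 of the 10 genes remained, with 89 and 61 of all genes and 2 and 0 pathway genes. The depth is unknown, so no counting error can be given for any gene.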

Other observations

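Charging of tRNA is another function that ATF4 is known to supply. Of 12 aminoacyl-tRNA synthetases and the tRNA exporter XPOT, 10 genes were higher and 3 were lower in FZR1 ko, with a median log2 ratio of 0.33 and 1 at least 2-fold. LARS1, the leucyl-tRNA synthetase, had 18.2 FPKM in control cells and 43.2 FPKM in FZR1 ko cells (1.20). EPRS1 had 43.4 and 76.1 FPKM (0.80) and AARS1 had 45.5 and 74.1 FPKM (0.69).

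Of the 7 genes of the mitochondrial stress relay and chaperones, 5 were higher and 2 were lower in FZR1 ko, with a median of 0.44, or 0.250 with a pseudocount of 5 FPKM, and 0 at least 2-fold. LONP1, a mitochondrial protease, had 29.0 FPKM in control cells and 49.6 FPKM in FZR1 ko cells (0.75), and HSPE1, a mitochondrial chaperonin, had 151 and 223 FPKM (0.57). OMA1, the protease that starts the relay from stressed mitochondria to the HRI kinase, had 3.45 and 5.05 FPKM (0.44).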
